A study of Mus musculus with 8 samples.

Results

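The genes described here are 10 regulators that keep T cells in, or return them to, a naive or memory state: the transcription factor genes Tcf7, Lef1, Foxo1, Foxp1, Bach2, Satb1, Klf2, Klf3 and Myb, and Il7r, a receptor gene. They were taken by symbol from the platform's gene annotation, and 9 of the 10 were matched, each by 1 probe set, among 19505 named genes. Tcf7 was not matched and was not analysed here. The cells were T cells of the spleen, CD4 and CD8 cells together, from male wildtype C57BL/6 mice, isolated with a Pan T cell kit and cultured at 200000 cells in 200 µL a well. All cells, the controls included, received anti-CD3/anti-CD28 microbeads and were kept for 48 h, in one group with PBS (phosphate-buffered saline, the vehicle) and in the other with hBD-2 (human beta-defensin-2, a cationic antimicrobial peptide of epithelia) at 60 µL/mL, a volume whose peptide mass the labels do not give. There were 4 arrays a group, numbered 1 to 4, from 4 mice. The labels do not tie an array to a mouse and do not say whether cultures were pooled, so the p-values measure the spread between these arrays. No freshly isolated or unstimulated cells were among the samples, so every value belongs to activated cells.

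These genes form a linked circuit in resting T cells. FOXO1, a forkhead factor that is active while PI3K and Akt signalling is low, drives Il7r, Klf2 and the homing receptor gene Ccr7. KLF2 in turn drives S1pr1, which lets T cells leave lymphoid organs. TCF-1, encoded by Tcf7, and its relative LEF-1 are HMG-box factors that keep the self-renewing programme of naive and memory cells. FOXP1 and BACH2 act against activation and effector differentiation, BACH2 in part by repressing Prdm1. Stimulation through the T cell receptor lowers much of this circuit, and memory precursors regain it.

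Values are the authors' deposited log2 expression values made with RMA, a method that removes background, scales arrays to each other and joins the probes of a set into 1 value. A log2 fold change is the hBD-2 mean less the PBS mean, tested with limma over all 19505 genes, two-sided, with Benjamini-Hochberg adjustment and a threshold of 0.05. Across all genes 4.46% passed, 0.800% higher and 3.66% lower with hBD-2. Of the genes that passed, 82.0% were lower, against 68.4% with quantile normalization repeated, 71.7% after cyclic loess and 71.6% once a trend with level had been taken out of each array. The interquartile range of an array lay between 3.64 and 3.76 log2 units with PBS and between 3.45 and 3.64 with hBD-2, lowest on hBD-2 replicates 3 and 4. All 9 genes lay in the top range of mean levels, above the upper quartile, between the percentiles 85.7 and 99.5. Of 10 matched pan T cell markers 0 passed in limma (1 at an unadjusted p under 0.05, Cd247, which passed under all 3 rescalings), and Cd3e, a subunit of the T cell receptor complex, stood at 11.54 ± 0.0329 (SD, n = 4) with PBS and 11.47 ± 0.0356 with hBD-2. The lineage markers Cd4 and Cd8a had log2 fold changes of 0.03 (95% interval -0.19 to 0.25) and 0.13 (-0.05 to 0.31).

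With hBD-2, Myb and Klf3 rose, and 7 of the 9 regulators did not pass the threshold. Of those 7, the genes Lef1, Foxo1, Foxp1, Satb1 and Klf2 had positive log2 fold changes between 0.12 and 0.28, while Bach2 and Il7r had small negative ones. The median log2 fold change of the 9 was 0.27, beside 0.02 over all genes. None of the 9 passed in the lower direction (0 also at an unadjusted p under 0.05), and 5 lay at an unadjusted p under 0.05 in the higher direction. The share of all genes at that cut was not counted, so unadjusted counts, here and for the lists, have no background. In 6 of the 9 every hBD-2 array lay above every PBS array, whereas 5.51% of all genes did so. In bulk RNA, more cells of a kind and more RNA per cell cannot be told apart.

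**Figure D1:**
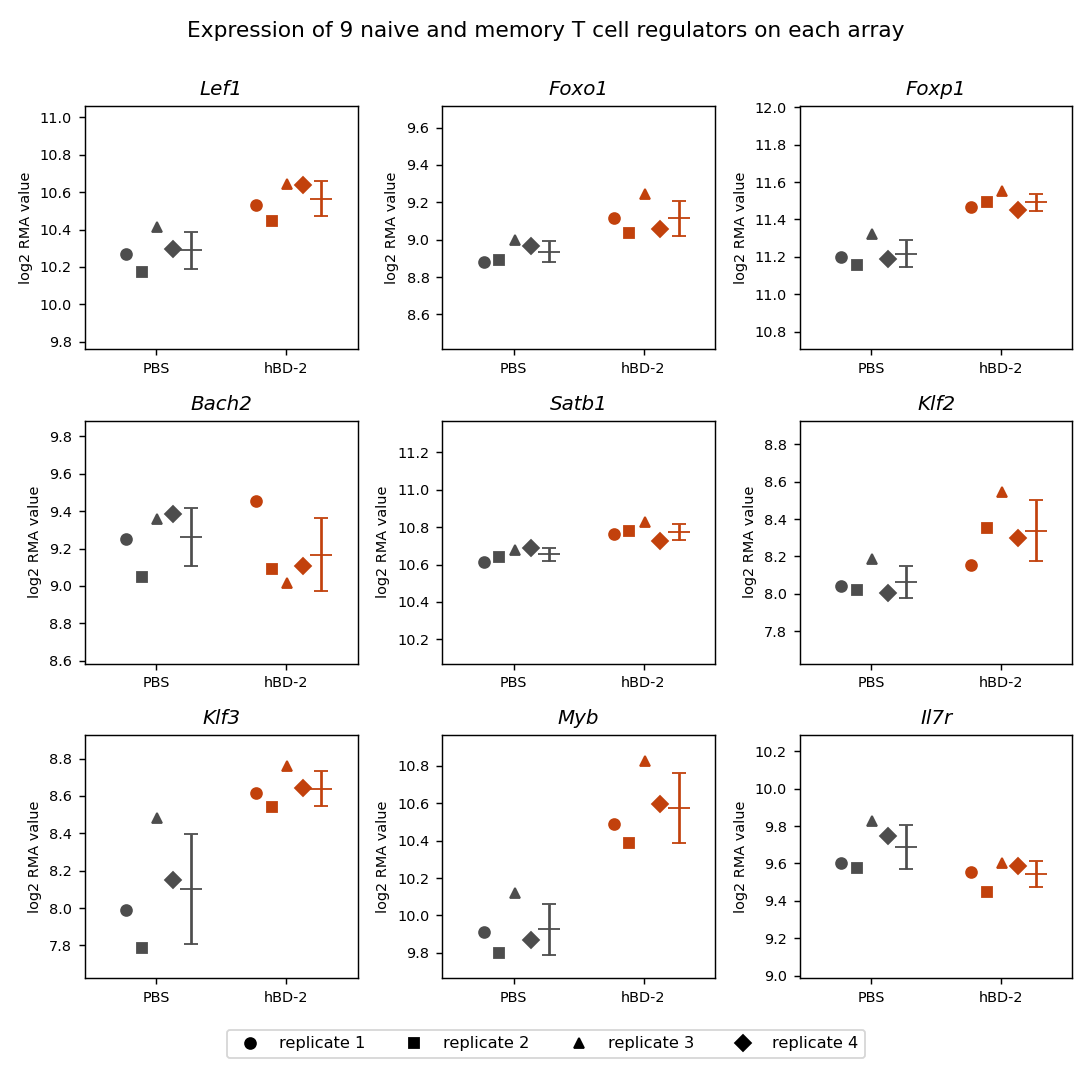
Log2 RMA values (vertical axis, each panel spanning the same 1.3 log2 units) of 9 regulators on 4 PBS arrays (grey) and 4 hBD-2 arrays (orange). Marker shape gives the replicate number and the bar the mean and SD, and the groups are apart for Lef1, Foxo1, Foxp1, Satb1, Klf3 and Myb but overlap for Bach2, Klf2 and Il7r.

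Myb encodes c-Myb, a DNA-binding factor needed for thymocyte development and for stem-like memory CD8 cells. On PBS replicates 1 to 4 Myb stood at 9.91, 9.80, 10.12 and 9.87, and on hBD-2 replicates 1 to 4 at 10.49, 10.39, 10.83 and 10.60. Every hBD-2 array was above every PBS array, and array 3 was the highest of each group. Myb rose 1.57-fold (log2 fold change 0.65, 95% interval 0.40 to 0.90, limma adjusted p = 0.0102). With any single array left out it stayed past the threshold, at log2 fold changes between 0.57 and 0.71 (highest limma adjusted p = 0.0416). Without hBD-2 replicates 3 and 4 together the log2 fold change was 0.51 (limma adjusted p = 0.116).

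Klf3 encodes a Krüppel-like zinc finger protein that binds CACCC elements and represses through CtBP corepressors. The PBS arrays gave Klf3 values of 7.99, 7.79, 8.48 and 8.15, a wide spread, and the hBD-2 arrays gave 8.61, 8.54, 8.76 and 8.64. The groups did not overlap, although PBS replicate 3 came close to the lowest hBD-2 array. The SD was 0.292 with PBS and 0.0921 with hBD-2. Klf3 rose 1.45-fold (log2 fold change 0.54, 95% interval 0.24 to 0.83, limma adjusted p = 0.0478). This call was at the edge of the threshold. It was lost without any one of PBS replicates 1, 2 or 4 or hBD-2 replicates 1 to 4 (highest limma adjusted p = 0.128) and with array weights (0.0523), and it was stronger without PBS replicate 3 (log2 fold change 0.66, limma adjusted p = 0.0145).

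The 250 bases before the annotated starts of Klf3, its relative Klf2 and Myb are shown because Klf3 and Myb were the members that rose and because CACCC is the element that KLF proteins bind. Sequences are from RefSeq on GRCm38.p6, 5′ to 3′ along the gene. Capitals mark each CACCC or its reverse complement GGGTG.
Klf3, chr5:64803271-64803520, plus strand: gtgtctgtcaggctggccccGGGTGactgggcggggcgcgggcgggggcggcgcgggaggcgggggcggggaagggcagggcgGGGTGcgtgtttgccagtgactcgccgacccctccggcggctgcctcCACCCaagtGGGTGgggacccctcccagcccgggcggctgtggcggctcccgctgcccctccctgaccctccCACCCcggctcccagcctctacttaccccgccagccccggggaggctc
Klf2, chr8:72318812-72319061, plus strand: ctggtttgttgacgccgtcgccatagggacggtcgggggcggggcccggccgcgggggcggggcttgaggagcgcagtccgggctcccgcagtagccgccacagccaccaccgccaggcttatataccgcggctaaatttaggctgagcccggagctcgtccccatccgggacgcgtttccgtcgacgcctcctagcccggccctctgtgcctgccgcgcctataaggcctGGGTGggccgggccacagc
Myb, chr10:21160985-21161234, minus strand: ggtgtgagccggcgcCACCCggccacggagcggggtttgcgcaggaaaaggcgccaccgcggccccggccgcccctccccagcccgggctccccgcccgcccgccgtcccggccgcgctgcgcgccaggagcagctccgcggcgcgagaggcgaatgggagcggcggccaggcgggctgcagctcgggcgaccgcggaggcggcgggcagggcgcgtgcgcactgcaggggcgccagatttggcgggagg
The Klf3 window held 5 CACCC matches, and those of Klf2 and Myb held 1 each. Their GC contents were 78.4%, 71.2% and 81.2%. CACCC was found on either strand in 52.0% of all 32851 promoter windows of this length, and in 13 of 18 windows of the 9 regulators (several genes have overlapping or alternative windows). None of the 18 windows held the forkhead element GTAAACA (3.17% of all windows) or the BACH2 and AP-1 type element TGANTCA (6.75%), also searched on both strands. The TCF and LEF element CTTTGA was present in 3 of the 18, in Lef1, Foxp1 and Bach2 (13.8% of all windows), and the MYB element AACNG in 13 (74.2%). The Klf3, Klf2 and Myb windows held none of these other elements, so their CACCC matches overlap no other motif searched. The arrays did not measure binding, and a match describes letters only.

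Lef1 encodes the HMG-box partner of TCF-1, which recruits beta-catenin or Groucho corepressors. Its values were 10.27, 10.18, 10.42 and 10.29 on the PBS arrays and 10.53, 10.45, 10.64 and 10.64 on the hBD-2 arrays. The lowest hBD-2 array was only slightly above the highest PBS array, PBS replicate 3. The log2 fold change of 0.28 (95% interval 0.07 to 0.48) missed the threshold (limma adjusted p = 0.113).

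Foxp1, a forkhead repressor that holds naive T cells quiescent, gave 11.20, 11.16, 11.32 and 11.19 with PBS and 11.47, 11.49, 11.55 and 11.45 with hBD-2. The hBD-2 arrays lay close together and above all PBS arrays. Its log2 fold change of 0.27 (95% interval 0.09 to 0.46) had a limma adjusted p of 0.0909. The gene passed when values were rescaled, with log2 fold changes of 0.37 under quantile normalization, 0.35 under cyclic loess and 0.34 with the level trend removed (limma adjusted p = 0.0390, 0.0469 and 0.0486), and also with a variance trend or with dim genes left out.

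Foxo1 stood at 8.88, 8.89, 8.996 and 8.97 with PBS and at 9.12, 9.03, 9.25 and 9.06 with hBD-2. The groups were narrowly apart, and hBD-2 replicate 3 was the highest array. Its log2 fold change was 0.18 (95% interval -0.01 to 0.37, limma adjusted p = 0.260). FOXO1 activity is set largely by phosphorylation and nuclear export, which an array does not read.

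Satb1 encodes a chromatin organiser that T cells need for thymic development. Satb1 was at 10.61, 10.64, 10.68 and 10.69 on PBS arrays and at 10.76, 10.78, 10.83 and 10.72 on hBD-2 arrays, with the smallest within-group SDs of the 9 genes (0.0346 and 0.0425). The groups did not overlap, yet the log2 fold change was just 0.12 (95% interval -0.06 to 0.30, limma adjusted p = 0.419).

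Klf2, which maintains quiescence and S1pr1, gave 8.04, 8.02, 8.19 and 8.005 with PBS and 8.16, 8.35, 8.55 and 8.30 with hBD-2. In all, 3 hBD-2 arrays were above all PBS arrays, and hBD-2 replicate 1 lay within the PBS range. The log2 fold change of 0.27 (95% interval 0.05 to 0.50) did not pass (limma adjusted p = 0.149).

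Bach2, a leucine zipper repressor of effector genes, had the widest spread of the 9 with hBD-2 (SD 0.195). It stood at 9.25, 9.05, 9.36 and 9.39 with PBS and at 9.45, 9.09, 9.01 and 9.11 with hBD-2. Here hBD-2 replicate 1 was the highest of all 8, and the other 3 lay near or below the bottom of the PBS range. The log2 fold change was -0.09 (95% interval -0.36 to 0.17, limma adjusted p = 0.690), and its sign turned to 0.01 with quantile normalization.

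Il7r encodes the alpha chain of the interleukin-7 receptor, which gives resting and memory T cells their survival signal and also forms part of the TSLP receptor. It gave 9.60, 9.57, 9.83 and 9.75 with PBS and 9.55, 9.45, 9.60 and 9.58 with hBD-2. Every hBD-2 array lay below PBS replicates 1, 3 and 4, narrowly so for replicate 1, and the groups overlapped at PBS replicate 2. The log2 fold change of -0.14 (95% interval -0.35 to 0.06) missed the threshold (limma adjusted p = 0.397), and it shrank to -0.06 under each rescaling.

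**Figure D2:**
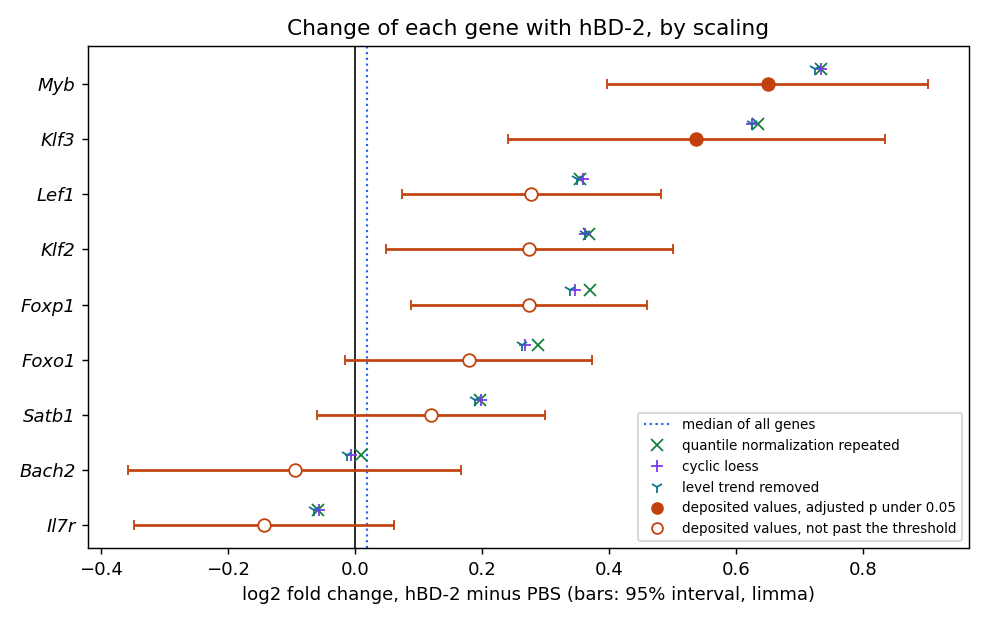
Log2 fold change, hBD-2 minus PBS, of each regulator with its 95% interval from limma (orange circles, filled where the adjusted p is under 0.05), the same after 3 rescalings (crosses and ticks above each circle) and the median of all genes (dotted line, 0.02). Myb (0.65) and Klf3 (0.54) are filled, and each rescaling places every gene further to the right.

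Rescaling moved all 9 genes upward by a similar amount. The median of the 9 was 0.27 on deposited values and 0.35 after quantile normalization, 0.35 after cyclic loess and 0.34 without the level trend, while the median of all genes stayed between 0.01 and 0.02. Klf3, Foxp1 and Myb passed in each of these 3 settings. The part of the narrower value range of the hBD-2 arrays in these small changes was not tested beyond that.

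Related members were compared through the difference of their log2 values within each array, in 2 pairs. Klf2 minus Klf3 averaged -0.04 ± 0.228 (SD, n = 4) with PBS and -0.30 ± 0.126 with hBD-2, a difference of changes of -0.26 (exact permutation test, two-sided, p = 0.114, adjusted over the 2 pairs 0.114). Foxo1 minus Foxp1 went from -2.28 ± 0.0491 to -2.38 ± 0.0637 (n = 4), a difference of -0.10 (exact permutation test, two-sided, p = 0.0857, adjusted 0.114). Neither pair was shown to respond differently. The smallest p for 4 arrays against 4 is 0.0286. The planned pair of Tcf7 and Lef1 could not be compared.

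Within groups the regulators varied together. PBS replicate 3 was the highest PBS array for 7 of the 9 genes, all but Bach2 and Satb1. Among the hBD-2 arrays replicate 3 was the highest for 8 of the 9, all but Bach2. PBS replicate 2 was the lowest of its group for 6 genes and hBD-2 replicate 2 for 5. After removing group means, the correlations over the 8 arrays between pairs of genes other than Bach2 ran from 0.24 (Lef1 with Satb1) to 0.92 (Klf3 with Il7r), with a median of 0.68 over 28 pairs. The 8 pairs with Bach2 ran from -0.50 (with Klf2) to 0.43 (with Il7r). These correlations share the arrays and their scaling, and they are a description. With both arrays numbered 3 left out, an alternative chosen after seeing the data, Myb stood 0.63 higher with hBD-2 (log2 scale, limma adjusted p = 0.0262) and Klf3 0.62 higher (limma adjusted p = 0.0427).

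**Figure D3:**
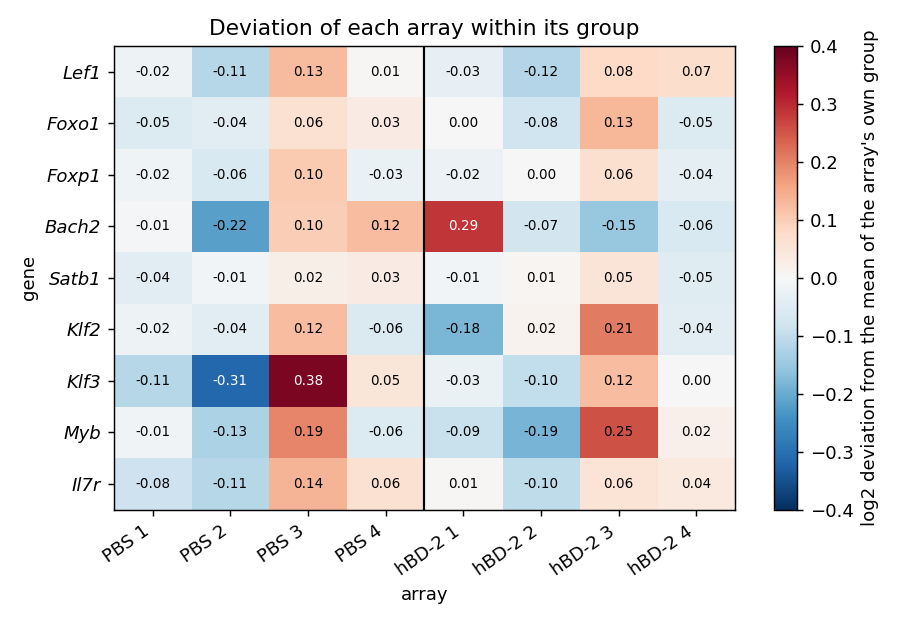
Deviation of each array (columns) from the mean of its own group for each regulator (rows), in log2 units, with red above and blue below the group mean. The columns of PBS replicate 3 and hBD-2 replicate 3 are red for nearly all genes, and Bach2 departs from the others, with 0.29 on hBD-2 replicate 1 and -0.15 on hBD-2 replicate 3.

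The genes whose values followed Myb most closely over the 8 arrays were Clint1 (Pearson r = 0.991), Rps27rt (0.988) and Dock2 (0.982), where genes with means under percentile 40 had been left out. For Klf3 they were Slc6a19 (0.992), Xpa (0.991) and Itga2b (0.983). None of these 6 passed between the groups, and their log2 fold changes lay between 0.21 (Clint1) and 0.47 (Itga2b).

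Genes that FOXO1 or KLF2 are known to drive had 0 of 14 matched members past the threshold in limma, with 2 at an unadjusted p under 0.05. Their median log2 fold change was 0.12, and 11 of the 14 were above 0. The sestrin gene Sesn3 and the antiproliferative gene Btg1 lay 0.26 and 0.31 higher on the log2 scale (limma adjusted p = 0.114 and 0.115). Il6ra, a receptor subunit, and Cdkn1b, which encodes the cell cycle inhibitor p27, came next (0.26 and 0.13, limma adjusted p = 0.234 and 0.457). Direct readouts named above, chosen after their values were seen, also stayed below the threshold: the homing receptor gene Ccr7 at 10.57 ± 0.0488 with PBS and 10.67 ± 0.0324 with hBD-2 (SD, n = 4), and S1pr1 at 9.26 ± 0.178 and 9.40 ± 0.124.

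Partners and signalling genes of the interleukin-7 receptor had 0 of 13 past the threshold in limma (2 at an unadjusted p under 0.05, both lower). Their median log2 fold change was -0.08, with 6 above 0 and 7 below. The 3 rescalings placed this median between -0.01 and 0.004. Socs2, a feedback inhibitor of cytokine signalling, had -0.42 on the log2 scale (limma adjusted p = 0.101) and Stat5a, which carries the receptor's signal, -0.24 (limma adjusted p = 0.177). Next by p came Mcl1, which was 0.20 higher (limma adjusted p = 0.232). Il7 itself lay below the lower quartile of every array, at 2.69 ± 0.0506 and 2.93 ± 0.263 (SD, n = 4).

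Among 17 naive and memory markers, Actn1 rose and Ly6c2 and Cd44 fell, and 14 did not pass. At an unadjusted p under 0.05 lay 9 of the 17, with 3 higher and 6 lower. The median was -0.18, and between -0.10 and -0.08 under the 3 rescalings. Actn1, an alpha-actinin gene marked by high expression in naive cells, rose 1.37-fold, from 9.29 ± 0.0958 to 9.74 ± 0.0566 (limma adjusted p = 0.0176). Cd44, the hyaluronan receptor that marks antigen-experienced cells, fell by 0.47 on the log2 scale (limma adjusted p = 0.0309). Ly6c2, a surface protein of memory and effector CD8 cells, fell by 0.50 (limma adjusted p = 0.0108). Ly6c2 kept its call with each single array left out, but 0 of the 17 passed without hBD-2 replicates 3 and 4 together or without both arrays numbered 3. Actn1 lost it when array 1 or 2 of the PBS group or array 3 of the hBD-2 group was left out (highest limma adjusted p = 0.0650). Cd44 lost it without any PBS array or without hBD-2 replicate 3 or 4 (highest 0.0875) and with quantile normalization. The chemokine receptor gene Cxcr5 did not pass (-0.36 on the log2 scale, limma adjusted p = 0.0621). Ets1, 0.30 higher, did not pass on deposited values (limma adjusted p = 0.0808) but did with quantile normalization.

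Effector transcription factor genes, which oppose the naive programme, fell in 6 of 15 members, none rose, and 9 did not pass. Their median was -0.52. Prdm1, which encodes Blimp-1, the driver of terminal effector differentiation, stood at 5.81, 5.77, 5.34 and 5.81 with PBS and at 3.79, 4.64, 4.53 and 4.08 with hBD-2. The groups were far apart, and Prdm1 fell 2.68-fold (limma adjusted p = 0.00183). Every hBD-2 value lay below 4.74, the percentile 40 of gene means, so the size of the fall rests on a low signal. Id2, an inhibitor of E proteins in effector cells, fell 1.67-fold (limma adjusted p = 0.00105). Nfil3, Zbtb32, Xbp1 and Bhlhe40 also fell, by 1.14, 0.85, 0.68 and 0.53 on the log2 scale. Prdm1, Id2, Nfil3 and Zbtb32 kept their calls with any single array left out. Xbp1 lost its call without PBS replicate 1, 2 or 4 or hBD-2 replicate 3 or 4 (highest limma adjusted p = 0.0667), and Bhlhe40 without any PBS array, without hBD-2 replicate 3 or 4 (0.123) and under all 3 rescalings. Without hBD-2 replicates 3 and 4 together 3 of the 15 passed.

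Partners of BACH2 and genes it is known to repress, a list that shares Prdm1, fell in 4 of 12 members and the median was -0.06. The 3 others were Hmox1 (heme oxygenase), Ccr4 (a chemokine receptor) and Gzmb (granzyme B), with log2 fold changes of -0.74, -1.08 and -0.75. Like Prdm1, Ccr4 lay below 4.74 on every hBD-2 array. Hmox1 lost its call when PBS array 1, PBS array 2 or hBD-2 array 4 was left out, and Ccr4 when PBS array 1 or 2 was (highest limma adjusted p = 0.0540 and 0.0516). Without PBS replicate 1, or without PBS replicate 2, 2 of the 12 passed, and without hBD-2 replicates 3 and 4 together 1 did. Bach2 itself, as given above, did not pass.

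Cofactors of TCF-1 and LEF-1 had 0 of 11 past the threshold in limma (3 at an unadjusted p under 0.05), with log2 fold changes from -0.26 (Bcl9) to 0.27 (Tle4, a Groucho corepressor). Paralogues of the regulators had 0 of 16 past it (3 at an unadjusted p under 0.05) and a median of 0.04. Mybl2, the proliferation-linked relative of Myb, had -0.30 (log2, limma adjusted p = 0.196), opposite in sign to that of Myb. The 2 others at an unadjusted p under 0.05 were higher, Bach1 by 0.25 and Klf13 by 0.19 (limma adjusted p = 0.197 and 0.217). The relatives of Klf3 among them, Klf4, Klf5, Klf6, Klf7, Klf9, Klf10 and Klf13, lay between -0.18 (Klf9) and 0.19 (Klf4).

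**Figure D4:**
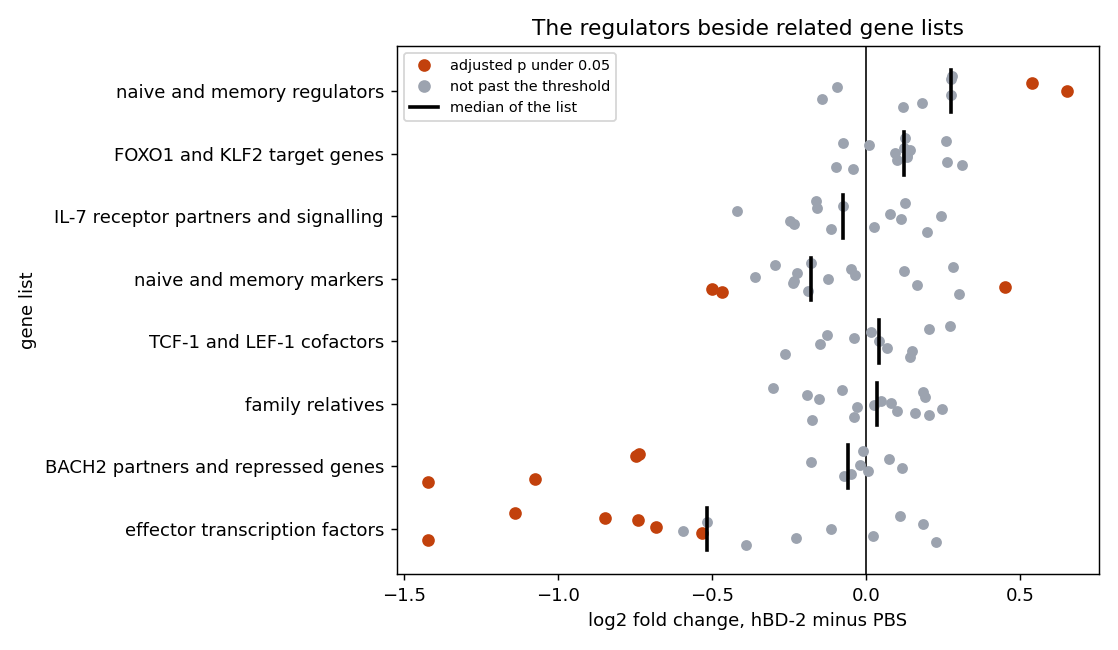
Log2 fold change, hBD-2 minus PBS (horizontal axis), of the members of 8 gene lists (rows). Each point is a gene, orange where the adjusted p is under 0.05, and the black bar is the list's median, 0.27 for the regulators and -0.52 for the effector factors.

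These regulators, Klf3 and Myb included, are also expressed by other blood cells, so markers of such cells are given beside them. Of 10 matched B cell markers 0 passed in limma. At an unadjusted p under 0.05 lay 1, H2-Ab1, which was lower, while 9 were above 0, with a median of 0.27. Their summed level, on the linear RMA scale, ran from 563 to 900 over the PBS arrays and from 437 to 1250 over the hBD-2 arrays. Among the hBD-2 arrays it was lowest on replicate 3 and highest on replicate 4. Of 11 mast cell and basophil markers 2 rose, Cpa3 from 4.41 ± 0.0621 to 5.39 ± 0.461 and Fcer1a from 3.72 ± 0.217 to 4.29 ± 0.175 (SD, n = 4; limma adjusted p = 0.0132 and 0.0323). Both means of Fcer1a and the PBS mean of Cpa3 lay below 4.74, the percentile 40 of gene means, so the size of these rises rests on a low signal. Fcer1a lost its call without PBS replicate 1, 2 or 4 or hBD-2 replicate 4 (highest limma adjusted p = 0.0940) and with quantile normalization. At an unadjusted p under 0.05 lay 6 of the 11, with 5 higher (Cpa3, Fcer1a, Mcpt8, Hdc and Gata2) and 1 lower (Kit). Of the 11, 8 were above 0, with a median of 0.17. The sums of this list were 402 to 454 with PBS and 403 to 492 with hBD-2. Its members Ms4a2, Mcpt4 and Cma1 lay below the lower quartile of every array. Haematopoietic progenitor markers, for whose cells Myb is essential, had 0 of 9 past the threshold in limma (2 at an unadjusted p under 0.05). Of the 9, 9 were above 0 with a median of 0.21, and sums were 172 to 248 and 206 to 347. The 3 rescalings placed this median at 0.14. Most of the list was dim, with Hlf and Procr at the percentiles 11.8 and 20.7 of mean level. With dim genes left out 3 of the 9 remained, with a median of 0.38 and 0 past the threshold.

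Of 5 matched erythroid markers Klf1 rose, by 0.42 on the log2 scale (limma adjusted p = 0.0441), which failed when any array except hBD-2 replicate 1 was omitted and under all 3 rescalings. All 5 were above 0, with a median of 0.13, and their sums were 259 to 301 with PBS and 295 to 340 with hBD-2. Myeloid and dendritic cell markers had 1 of 10 lower, Itgam, a call lost without any array but PBS replicate 1, with sums of 169 to 196 and 166 to 199. NK cell markers had 1 of 7 lower, Nkg7, which cytotoxic T cells also express, and sums of 1636 to 1931 with PBS and 1185 to 1472 with hBD-2. This list shares Eomes with the naive and memory markers, at log2 means of 8.91 with PBS and 8.69 with hBD-2. With dim genes left out 3 of the 7 remained. Which cells the lower sums came from was not tested. Nkg7 lost its call without PBS replicate 1, 2 or 4 or hBD-2 replicate 3 or 4 (highest limma adjusted p = 0.0708). At an unadjusted p under 0.05 lay 3 of the 7 NK cell markers, Klra7, Klre1 and Nkg7, all lower. The median of the 7 was -0.23, and 6 were below 0. The members Ncr1 and Klrb1c lay below the lower quartile of every array. The part of any of these cells in the values of Myb and the other regulators was not tested.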

How the data were processed

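RNA of mouse T cell cultures was labelled with biotin and hybridised to 1-colour Affymetrix arrays, 8 in all. The authors deposited log2 values for 22203 probe sets. Per the submitters' processing notes, oligo and RMA made them, with versions, settings and annotation build not given in the sources used here. GEO's platform annotation gave 1 gene symbol for 19572 probe sets and several for 0, and left 2631 unnamed. Looked up by gene identifier on GRCm38.p6, 0 symbols changed. For 55 genes with several probe sets the highest mean was kept, which left 19505 genes. The number of arrays limits the precision, and detection calls were not used here.

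Comparisons used limma 3.58.1 in R 4.3.3 (lmFit, eBayes, no block), and exact permutation tests for the within-array differences of the 2 pairs. On simulated data the limma fit recovered 16% of 50 seeded 1.25-fold changes, 68% of 50 at 1.5-fold and 96% of 50 at 2-fold. Of its 142 calls there, 2 were false. The members and lists were chosen with earlier results of these data known. Named were all members, up to 4 genes a list by lowest p plus the rest of those called, markers past the threshold, and the 3 genes most correlated with each member that passed. Further genes (Ccr7, S1pr1, Cd3e, Cd4, Cd8a and the Klf relatives) were named after their values were seen. The promoter motifs were chosen after the values were seen. Alternatives were a replicate block, 3 rescalings, 3 variance or weighting models, a filter on dim genes, averaged probe sets and omitted arrays.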

Additional observations from a re-analysis of the deposited data

Results flagged for a closer look

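In 98 sets of 4 values, 1 for each named gene and group, 5 held an array far from the other 3, and chance flags about 1 in 20 sets. None was a value of the 9 regulators. Tle3 on hBD-2 replicate 2 stood at 9.77, with the others between 9.83 and 9.83, so that this gap is small in size. Sesn3 was at 9.75 on PBS replicate 3 and between 9.53 and 9.56 on the other PBS arrays. Prdm1 was at 5.34 on PBS replicate 3, below 5.77 to 5.81 on the others, and PBS replicate 3 was also the highest of the 4 PBS arrays for 7 of the 9 regulators. Xbp1 was at 8.96 on hBD-2 replicate 1 against 8.37 to 8.44. Ccr4 was at 3.25 on hBD-2 replicate 4 against 4.03 to 4.19.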

How the results depend on the processing

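Over all genes 869 passed, and 2032 with a variance trend, 1541 with dim genes left out, 128 without hBD-2 replicates 3 and 4 together, 296 without both arrays numbered 3, and 312 to 1396 with a single array left out. Of the 9 regulators 2 passed, against 4 with a variance trend (Lef1, Klf3, Foxp1 and Myb), 1 with array weights, 0 without hBD-2 replicates 3 and 4 (the smaller group having 2 arrays), and 1 to 2 with single omissions. Lef1 passed at 0.28 with a variance trend. Foxp1 passed at 0.37 after quantile normalization, 0.35 after cyclic loess, 0.34 without the level trend, and 0.27 with a variance trend or with dim genes left out. Bach2 turned to 0.0101 with quantile normalization and to 0.0119 without hBD-2 replicates 3 and 4. Klf3 did not pass with array weights (0.54) or without hBD-2 replicates 3 and 4 (0.48), and ranged from 0.43 to 0.66 with single omissions. Myb was at 0.51 without hBD-2 replicates 3 and 4. The causes were not tested. The comparison of Tcf7 with Lef1 was not run. Deviations of same-numbered arrays correlated at 0.181, 0.0585, 0.159 and 0.00482 for numbers 1 to 4. The highest correlations of these PBS arrays with an hBD-2 array of another number were 0.0365, 0.0781, 0.0906 and 0.0316. These values do not settle whether the arrays were paired. The labels tie no array to a mouse, so the numbers were not taken as pairs. With the replicate block 857 genes passed, among them Klf3 (0.54, limma adjusted p = 0.0303) and Myb, and the count of 2 regulators did not change. In the other lists the block ended the calls of Cd44, Fcer1a and Klf1 and kept those of the other named genes that had passed, and it added 1 lower call among B cell markers and 1 higher call among progenitor markers.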
